A study of Mus musculus with 8 samples.

Results

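The genes of oxidative phosphorylation were followed in trafficked maternal cells and recipient cells of neonatal mice after in utero transplantation (IUT). Members were the protein-coding genes whose mouse symbol begins with Nduf, Uqcr, Atp5 or Cox4 to Cox8, the genes Sdha, Sdhb, Sdhc and Sdhd, and the genes whose symbol begins with mt-Nd, mt-Co, mt-Atp or mt-Cyt. The rule gave 111 of the 52784 genes of the count table, of which 98 are nuclear and 13 are encoded by mitochondrial DNA. A mean of at least 10 CPM (counts per 1000000, scaled by edgeR's TMM factors) over the 8 libraries was reached by 100 members, 88 nuclear and 12 mitochondrially encoded, and by 8275 protein-coding genes in all. The 11 members below it were mt-Nd4l, Cox4i2, Cox5b-ps, Cox6a2, Cox7a1, Cox7b2, Cox8b, Cox8c, Ndufa4l2, Ndufb11b and a second identifier of Atp5po, of which Cox7b2, Cox8c and that identifier had no count. A further 18 pseudogenes match the symbols and were not members. They held counts equal to 0.204% to 0.452% of those of the nuclear members, and reads shared between a gene and such a copy could be split by the estimation of counts.

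Oxidative phosphorylation is run by 5 complexes of the inner mitochondrial membrane. Complex I (NADH dehydrogenase) and complex II (succinate dehydrogenase) feed electrons to ubiquinone, complex III passes them to cytochrome c, complex IV (cytochrome c oxidase) hands them to oxygen, and complex V (ATP synthase) uses the proton gradient to make ATP. Most subunits are encoded in the nucleus and imported, while a small core of complexes I, III, IV and V is transcribed inside the organelle from mitochondrial DNA, whose heavy strand yields long precursor RNAs that are cut into messages. Complex II is wholly nuclear.

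The RNA came from F1 pups aged 1 week, born to BALB/c males and C57BL/6 (B6) dams that carried the CD11c-DTR transgene, in which the CD11c promoter drives a diphtheria toxin receptor. Dams were given diphtheria toxin (5 ng/g, DC-depleted) or saline (DC control) on embryonic day 13, and each fetus received 5000000 bone marrow mononuclear cells on embryonic day 14, from B6 donors in maternal-donor IUT (mIUT) or from BALB/c donors in paternal-donor IUT (pIUT). The 4 treatments were uninjected, DC control mIUT, DC control pIUT and DC-depleted pIUT, where uninjected pups were offspring of dams given toxin or saline that had no IUT. Maternal cells were sorted by H2K-b and recipient cells by H2K-d from mononuclear cells of whole-body harvests, and the cells of several pups were pooled into 1 library for each treatment and origin. Recipient cells, as F1 cells of both strains, carry H2K-b as well as H2K-d, so H2K-b alone does not set maternal cells apart from them. In the study's flow cytometry recipient cells were recognized by carrying both markers. B6 donor cells carry H2K-b and BALB/c donor cells carry H2K-d, so donor cells also bear a marker used in the sorts. With 1 library a group there was no replicate, and a difference between 2 libraries is a difference between those pools and not a test of the condition. A gene was called higher or lower past 2-fold, with no p value.

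The libraries held 38543457 to 47965130 counts. They differed in how complete they were: 9937 genes had more than 3 counts in recipient uninjected and 10664 in maternal mIUT, against 13628 to 17806 in the other 6 libraries. Of the protein-coding genes at 10 CPM or more in each of the other 7 libraries, 9.7% were under 1 CPM in recipient uninjected and 4.94% in maternal mIUT, against 0 to 1.29% elsewhere. Marker genes differed too. Hepatocyte markers (7 of 7 in the table) summed to 10215 CPM in recipient uninjected and 4308 in maternal mIUT, against 5.14 to 664 elsewhere. A single gene carried each of these sums, Afp with 9050 CPM in recipient uninjected and Apoa1 with 3820 in maternal mIUT, while Alb was at 19.7 and 64 CPM in them and reached 129 in recipient DC-depleted pIUT, and Apoa2 had no count in recipient uninjected. Epithelial, mesenchymal and endothelial markers (8 genes) summed to 2537 CPM in recipient uninjected, mostly Krt8 (1140) and Krt18 (1260), against 11.7 to 449 elsewhere. The mesenchymal markers Col1a1, Col1a2 and Col3a1 had no count in recipient uninjected. Granulocyte markers (8 genes) summed to 162291 CPM in maternal mIUT and 262839 in recipient mIUT. Erythroid markers (9 of 10 in the table) summed to 181068 CPM in maternal DC-depleted pIUT, the highest of the 8, and to 211 in recipient mIUT. Hematopoietic markers (Ptprc, Coro1a, Laptm5 and Cd53) were present in every library, at 477 to 10140 CPM, with the lowest sum in maternal DC-depleted pIUT. The part of these differences in the results below was not tested, and in pooled bulk RNA fewer cells of a type and less RNA per cell cannot be told apart.

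The overlap of mitochondrial reading frames bears on how their counts were split, so the shared bases are shown. The last 43 bases of mt-Atp8 are also the first of mt-Atp6 (chrM:7927-7969, GRCm39, plus strand), and the last 7 of mt-Nd4l are the first of mt-Nd4 (chrM:10167-10173). Capitals mark the start codon of mt-Atp6.

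mt-Atp8 and mt-Atp6: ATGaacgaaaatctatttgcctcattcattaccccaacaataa

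mt-Nd4l and mt-Nd4: atgctaa

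Each pair is carried on a single message, and reads in or near the overlap could be given to either gene by the estimation of counts. mt-Nd4l, a complex I subunit, had 770 counts in recipient uninjected and 0 in each of the other 7 libraries, while mt-Nd4 had counts in every library. The 0 of mt-Nd4l was therefore read only as a listed value. mt-Nd4l did not enter the counts of genes past 2-fold below, and its 770 counts stayed in the sums and shares of the 13 genes, where they were 0.0573% of the mitochondrial counts of recipient uninjected.

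The mitochondrially encoded genes varied more between libraries than the nuclear members, and moved in opposite directions in the 2 origins. In trafficked maternal cells they took 0.246% of all counts in uninjected pups (95% Wilson interval 0.244% to 0.247%), 1.24% after mIUT (1.239% to 1.246%), 1.55% after pIUT (1.546% to 1.554%) and 0.868% after DC-depleted pIUT (0.865% to 0.871%). In recipient cells they took 2.8% in uninjected pups (2.797% to 2.806%), 0.118% after mIUT (0.117% to 0.119%), 0.124% after pIUT (0.1229% to 0.1251%) and 0.0871% after DC-depleted pIUT (0.0862% to 0.0880%). Maternal cells were thus lowest without IUT and recipient cells were highest without IUT. These intervals cover counting error only.

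The nuclear members behaved otherwise. Their shares of all counts in maternal cells were 1.77% without IUT, 1.71% after mIUT, 1.77% after pIUT and 4.32% after pIUT with DC depletion. The shares in recipient cells were 1.58%, 0.908%, 2.29% and 2.45% in the same order. The maternal DC-depleted pIUT library stood alone at the top. The summed CPM of the mitochondrial set divided by that of the nuclear set was 0.139, 0.728, 0.875 and 0.201 in maternal cells and 1.77, 0.13, 0.0542 and 0.0356 in recipient cells, again in the order uninjected, mIUT, pIUT and DC-depleted pIUT.

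**Figure D1:**
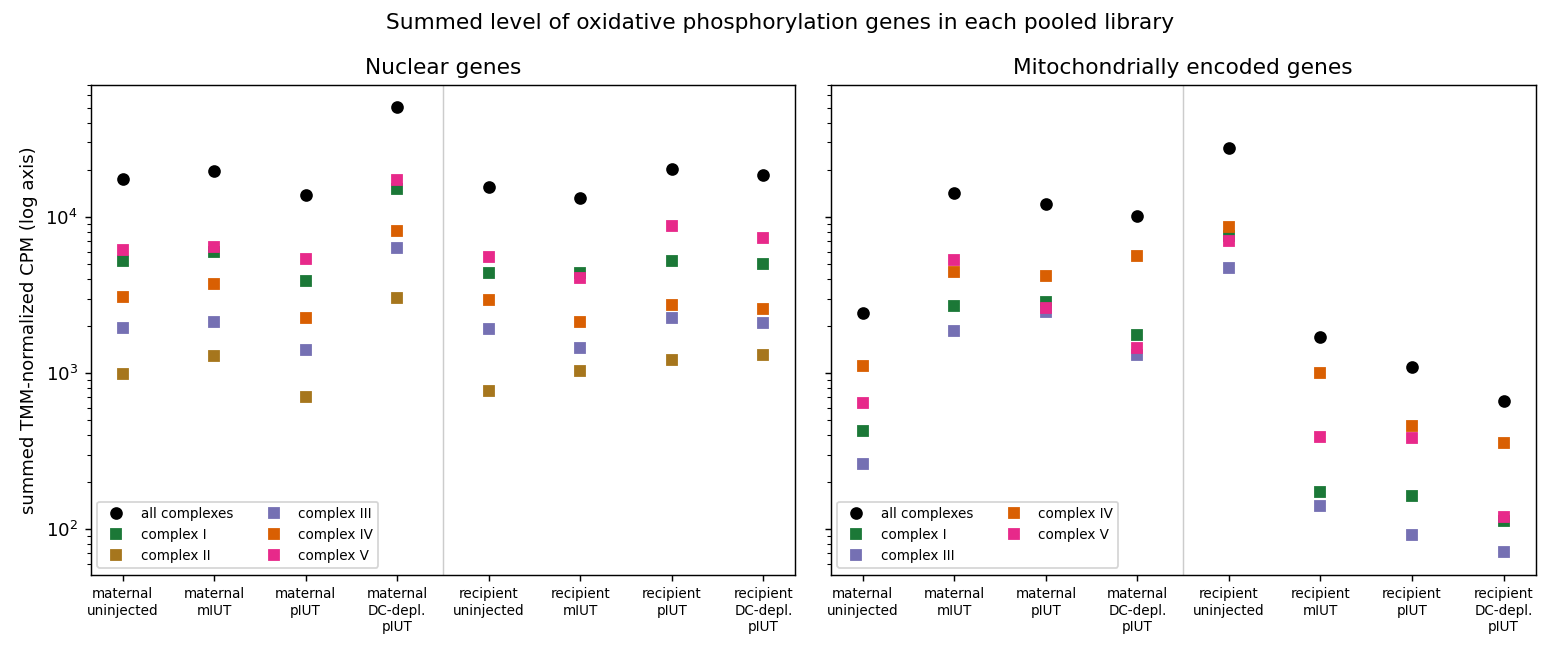
Summed TMM-normalized CPM (log axis) of the nuclear members, left, and the mitochondrially encoded members, right, in each of the 8 pooled libraries, with black circles for all complexes and coloured squares for each complex; complex I assembly factors are counted in the black circles only. The nuclear sum lies between 13169 and 20259 CPM in 7 libraries and at 50427 in maternal DC-depleted pIUT, while the mitochondrial sum runs from 658 to 27782.

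Among the mitochondrially encoded members of complex I, mt-Nd1 stood at 192 CPM in maternal uninjected, 1550 after mIUT, 1460 after pIUT and 1300 after DC-depleted pIUT. In recipient cells mt-Nd1 stood at 3800 CPM in uninjected pups and at 81.9, 71.7 and 50.4 in the 3 IUT libraries. All 3 maternal IUT libraries lay above the maternal uninjected library, and all 3 recipient IUT libraries lay below every maternal library. From here on, 4 values for an origin follow the order uninjected, mIUT, pIUT and DC-depleted pIUT. mt-Nd2 had 78.2, 350, 305 and 134 CPM in maternal cells and 926, 17.7, 24.2 and 17.1 in recipient cells. mt-Nd4 had 79.8, 363, 531 and 139 CPM in maternal cells and 1330, 29.2, 21 and 15.4 in recipient cells.

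mt-Nd5, near the far end of the heavy-strand precursor, had 37.3, 306, 416 and 50.7 CPM in maternal cells and 1160, 26.8, 20.6 and 8.83 in recipient cells. mt-Nd6, the single protein message of the light strand, had 7.66, 47.9, 70.4 and 10.5 CPM in maternal cells and 182, 4.67, 5.51 and 1.93 in recipient cells. For both genes maternal DC-depleted pIUT was close to maternal uninjected, at log2 fold changes of 0.44 for mt-Nd5 and 0.46 for mt-Nd6. mt-Nd3 varied least of the set, with 31.4, 63.7, 72 and 120 CPM in maternal cells and 93.4, 13.6, 19.6 and 19.1 in recipient cells, and maternal DC-depleted pIUT was its highest library.

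mt-Cytb, the mitochondrial subunit of complex III, had 260, 1870, 2470 and 1300 CPM in maternal cells and 4700, 140, 92 and 71 in recipient cells. Of the catalytic core of complex IV, mt-Co1 had 433, 1590, 1980 and 2120 CPM in maternal cells and 3670, 473, 149 and 75.2 in recipient cells. mt-Co2 had 270, 1520, 1390 and 1230 CPM in maternal cells and 3220, 150, 80.3 and 55 in recipient cells. The 3 genes shared the same split, with the recipient uninjected library highest and the recipient DC-depleted pIUT library lowest. mt-Co3 had 399, 1340, 801 and 2270 CPM in maternal cells and 1680, 385, 231 and 224 in recipient cells, so that maternal DC-depleted pIUT and not recipient uninjected was its highest library.

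In complex V, mt-Atp6, a part of the proton channel, had 629, 5110, 2520 and 1430 CPM in maternal cells and 6730, 381, 375 and 118 in recipient cells. mt-Atp8 had 18.1, 192, 78.9 and 30 CPM in maternal cells and 277, 6.9, 9.14 and 2.12 in recipient cells. Levels of different genes were compared per kilobase of transcript. On that scale mt-Atp6 was the highest member in maternal mIUT (7500 CPM per kb), maternal pIUT (3700) and recipient uninjected (9880). In recipient pIUT the highest was instead nuclear Atp5f1b, the catalytic beta subunit of ATP synthase, at 1570 CPM per kb against 550 for mt-Atp6.

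Against maternal uninjected, all 12 tested mitochondrial members were past 2-fold higher in mIUT (median log2 fold change 2.57) and all 12 in pIUT (median 2.28). In DC-depleted pIUT 7 of 12 were higher (median 1.56), namely mt-Nd1, mt-Nd3, mt-Cytb, mt-Co1, mt-Co2, mt-Co3 and mt-Atp6. None was lower in any of these comparisons. Over all 8275 genes tested, 25% were higher and 34.7% lower after mIUT, 24.8% higher and 27.6% lower after pIUT, and 29.9% higher and 33.5% lower after DC-depleted pIUT. Lymphocyte markers were highest among the maternal libraries in maternal uninjected, with B cell markers at 6825, 359, 70.2 and 31.3 CPM, T cell markers at 2643, 550, 135 and 400, and NK cell markers at 999, 201, 142 and 86, and their part in these differences was not tested. In recipient cells all 12 were past 2-fold lower than uninjected in mIUT (median -5.17), pIUT (median -5.15) and DC-depleted pIUT (median -5.96). The shares of all genes were 39.5% higher and 29.7% lower in recipient mIUT, 36.6% higher and 23.1% lower in recipient pIUT, and 34.7% higher and 22.2% lower in recipient DC-depleted pIUT. The 3 comparisons of an origin share their uninjected library, and recipient uninjected was also the least complete of the 8. Without that library the recipient sums were 1709, 1099 and 658 CPM, each below the 2435 CPM of maternal uninjected.

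The opposite movement was examined with the 3 IUT treatments standing in for replicates, in a test chosen after the values were seen and prompted by the movement itself. The uninjected side of the test is 1 library for each origin, on which every p value below rests, and its spread is that between 3 different treatments, so the p values describe these libraries and do not test the effect of IUT. The IUT difference was taken as maternal minus recipient cells on the log2 scale. Among the mitochondrial members it was largest for mt-Nd5 (8.74) and mt-Nd1 (8.71) and smallest for mt-Nd3 (3.86). Nuclear Ndufaf5, named below, went the other way (-8.58), with 1 count in recipient uninjected. edgeR's quasi-likelihood test with Benjamini-Hochberg adjustment called 0 of 100 members, and 0% of all genes, at an adjusted p of 0.05. At an unadjusted p under 0.05 it found 13 members, the 12 mitochondrial members and Ndufaf5, among 1291 of 8275 genes, and the adjusted p of the mitochondrial members ran from 0.0662 to 0.199. DESeq2 with the same model called these 13 members, among 18% of the 8057 genes to which it gave an adjusted p. The edgeR test at an unadjusted p under 0.05 kept 8 of these 13 members without the pIUT libraries, 10 without the DC-depleted pIUT libraries and all 13 without the mIUT libraries. The call therefore differed between the tools.

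DC depletion was examined by setting DC-depleted pIUT against DC control pIUT. In maternal cells 1 of 12 mitochondrial members was past 2-fold higher, mt-Co3 (log2 fold change 1.5), and 5 were lower, mt-Nd5 (-3.04), mt-Nd6 (-2.74), mt-Nd4 (-1.94), mt-Atp8 (-1.39) and mt-Nd2 (-1.19), beside 32.9% of all genes higher and 32.1% lower. With scaling by library total the split was 0 higher and 7 lower. In recipient cells 0 were higher and 4 lower, mt-Atp8 (-2.11), mt-Atp6 (-1.66), mt-Nd6 (-1.51) and mt-Nd5 (-1.22), beside 10.8% of all genes higher and 6.82% lower.

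The mitochondrial messages did not move in step. mt-Co3 made up 16.4%, 9.39%, 6.62% and 22.4% of the counts on the 13 genes in maternal cells and 6.05%, 22.5%, 21% and 34% in recipient cells. mt-Nd5 made up 1.53%, 2.14%, 3.44% and 0.501% in maternal cells and 4.16%, 1.57%, 1.87% and 1.34% in recipient cells. The ratio of mt-Co3 to mt-Nd5 counts was 10.7 in maternal uninjected, 4.39 after mIUT, 1.93 after pIUT and 44.7 after DC-depleted pIUT. In recipient cells it was 1.45, 14.4, 11.2 and 25.3. The DC-depleted pIUT library had the highest ratio within each origin. mt-Atp6, the neighbour of mt-Co3 on the precursor, reached its largest share in maternal mIUT, at 35.7%.

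The nuclear set was marked by the maternal DC-depleted pIUT library, which was the highest of the 8 for 83 of 88 members (94.3%), against 24% of all genes tested. The other 5 members were highest in maternal uninjected (2), maternal mIUT (1) and recipient DC-depleted pIUT (2). The nuclear members varied less than most genes of these libraries. The SD of log2 CPM over the 8 libraries had a median of 0.765 over the nuclear members, 2.19 over the mitochondrial members and 1.53 over all genes tested. Against maternal uninjected, 66 of 88 nuclear members were past 2-fold higher and 1 lower (median log2 fold change 1.47), beside 29.9% of all genes higher and 33.5% lower. Against maternal pIUT, 79 were higher and 0 lower (median 1.97), beside 32.9% and 32.1% of all genes. The same DT contrast in recipient cells had 1 member higher and 0 lower, beside 10.8% and 6.82% of all genes (median -0.06, which turned to 0.17 with scaling by library total and 0.15 with a total that left out mitochondrial and globin counts).

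**Figure D2:**
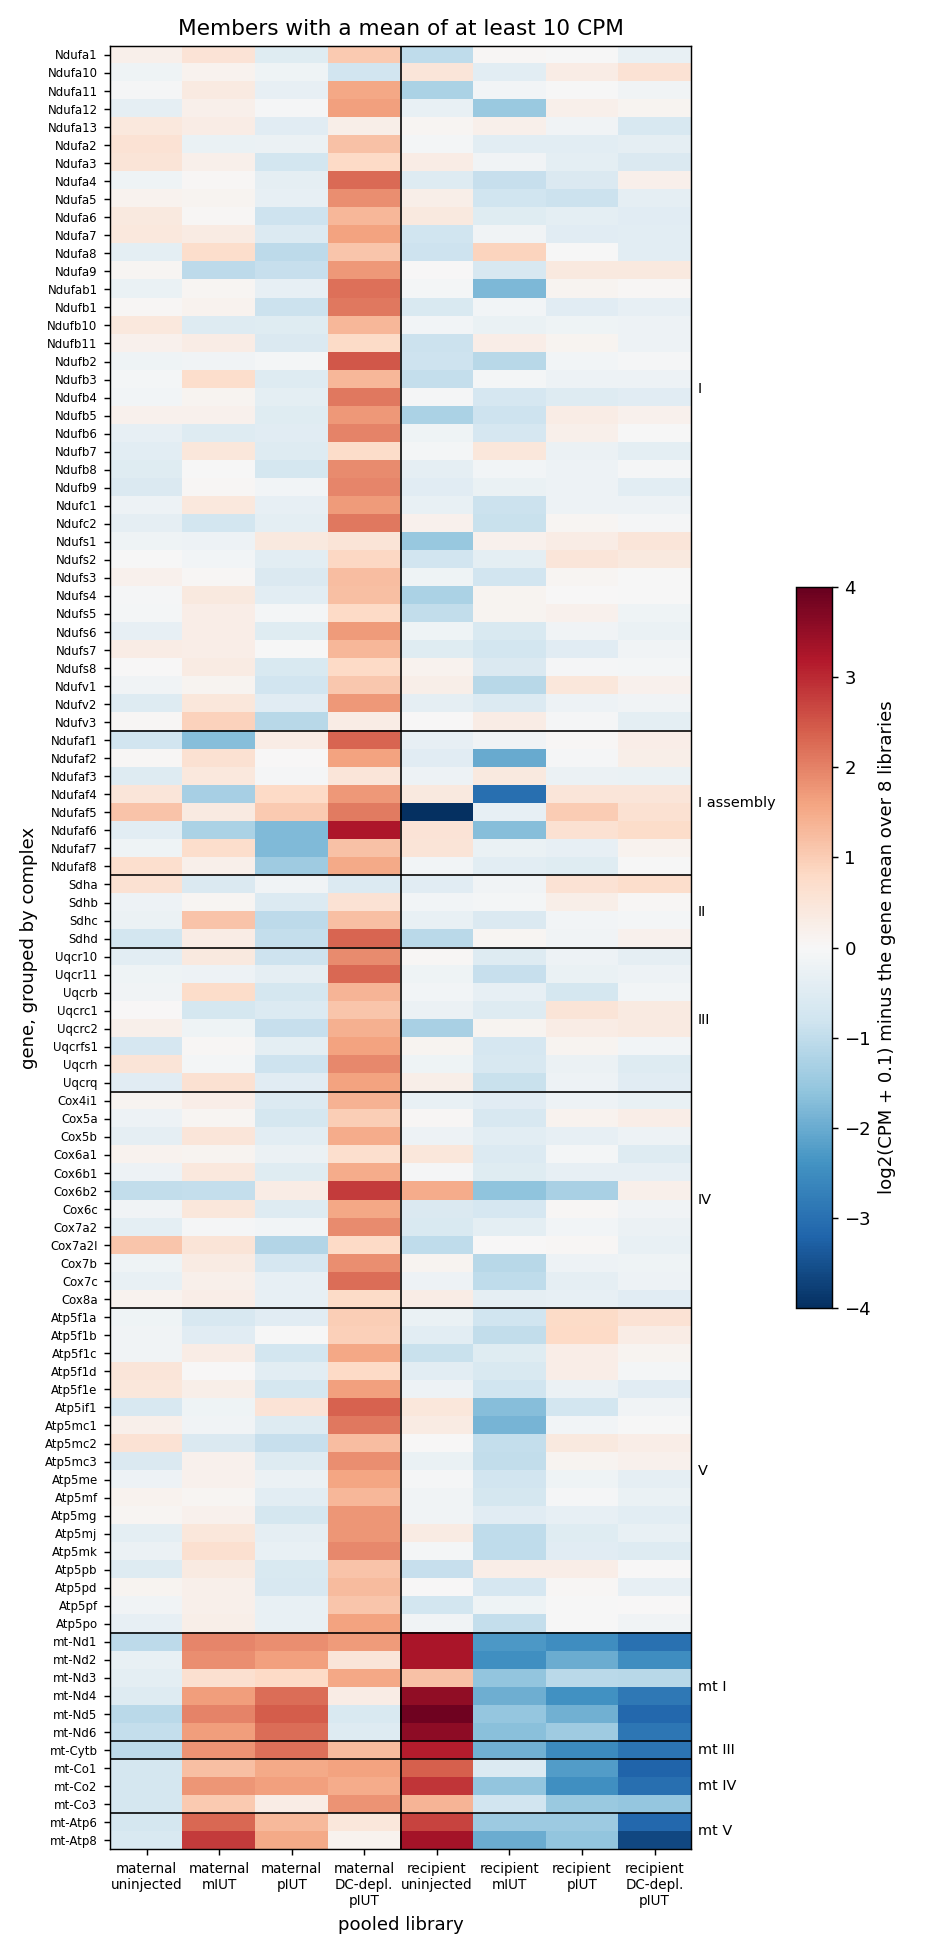
Log2(CPM + 0.1) of each of the 100 members with a mean of at least 10 CPM, less the mean of that gene over the 8 libraries, with rows grouped by complex and columns for the pooled libraries; red is above and blue below the mean of the gene. The maternal DC-depleted pIUT column is red over nearly all nuclear rows, and the recipient uninjected column is red over the mitochondrial rows.

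Complex I is the largest complex and its nuclear subunits (40 genes, 38 of them tested) summed to 5207, 5941, 3895 and 15165 CPM in maternal cells and 4377, 4367, 5188 and 5005 in recipient cells. Of the 38 tested, 34 were past 2-fold higher and 0 lower in maternal DC-depleted pIUT against pIUT, beside 32.9% and 32.1% of all genes. Ndufb1, an accessory subunit of the membrane arm, had 97.7, 104, 51.9 and 406 CPM in maternal cells and 61.4, 87.2, 69 and 75.2 in recipient cells. Ndufb2, of the same arm, had 82.5, 85, 87.6 and 517 CPM in maternal cells and 52.8, 43.4, 85.5 and 90.4 in recipient cells. Both were high in a single library and stayed at 104 CPM or below in the other 7. Ndufa9, a subunit of the quinone module, had 244, 113, 122 and 778 CPM in maternal cells and 234, 147, 303 and 304 in recipient cells. Ndufab1, the acyl carrier protein, had 122, 156, 117 and 674 CPM in maternal cells and 140, 42.4, 158 and 152 in recipient cells.

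The 4 complex I subunits that did not pass 2-fold in this comparison were Ndufa10, Ndufs1, Ndufa13 and Ndufs5. Ndufa10 had 70.9, 87.9, 70.5 and 46.5 CPM in maternal cells and 110, 59.4, 98.4 and 119 in recipient cells, and maternal DC-depleted pIUT was its lowest library. Ndufs1, the large iron-sulfur subunit of the NADH-oxidizing arm, had 69, 67.9, 102 and 111 CPM in maternal cells and 27.1, 88.4, 95 and 109 in recipient cells, with recipient uninjected apart at the bottom. Ndufa13 had 204, 189, 112 and 179 CPM in maternal cells and 161, 175, 139 and 98.3 in recipient cells, and was among the least variable members (SD 0.375). Ndufv3 passed 2-fold (log2 fold change 1.40), with 90.9, 169, 40.8 and 108 CPM in maternal cells and 90.1, 109, 85.8 and 67.9 in recipient cells, and maternal mIUT was its highest library. Ndufa4, which keeps its complex I symbol but is a subunit of complex IV, had 151, 175, 133 and 810 CPM in maternal cells and 117, 89.8, 114 and 194 in recipient cells, past 2-fold higher than pIUT like most of the set (2.61).

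The complex I assembly factors, which build the complex without staying in it, had a median SD of log2 CPM of 1.04 over the 8 libraries (8 genes, all tested), against 0.665 to 0.819 in the other nuclear groups. Ndufaf6 had 7.81, 4.29, 3 and 99.5 CPM in maternal cells and 15.2, 3.14, 16.1 and 17.2 in recipient cells (log2 fold change 5.05 between maternal pIUT and DC-depleted pIUT). It was the one member that passed the level filter only through its highest library, with a mean under 10 CPM over the other 7, so that among members that passed it had to differ there. Ndufaf1 had 17.5, 9.06, 36.1 and 148 CPM in maternal cells and 23.6, 26.5, 30.8 and 35.2 in recipient cells. For both genes maternal DC-depleted pIUT was the highest library. Ndufaf4 had 24.2, 6.79, 30 and 57.8 CPM in maternal cells and 22.8, 2.06, 24.4 and 24.6 in recipient cells, so that the mIUT libraries were low in both origins. Ndufaf2 had 12.4, 18, 11.9 and 36.2 CPM in maternal cells and 8.73, 2.89, 11.4 and 14.1 in recipient cells. Ndufaf7, a methyltransferase that acts on a complex I subunit, had 29.7, 54.5, 9.77 and 75 CPM in maternal cells and 47.2, 27.9, 26.6 and 36.5 in recipient cells. Ndufaf8 had 36.8, 26.5, 8.52 and 66.1 CPM in maternal cells and 21.4, 17.1, 16.5 and 22.6 in recipient cells.

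Ndufaf5 was the only tested member with 3 counts or fewer in a library. It had 1 count in recipient uninjected, against 164 in recipient mIUT, 668 in recipient pIUT and 601 in recipient DC-depleted pIUT, and 617 counts in maternal uninjected. The ratio to recipient uninjected was 277 in recipient mIUT (exact 95% counting interval 49.1 to 11000), 716 in recipient pIUT (128 to 28300) and 533 in recipient DC-depleted pIUT (95.2 to 21100). Recipient uninjected was the library in which genes common elsewhere were most often missing, and the part of this in the value of Ndufaf5 was not tested.

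The 4 subunits of complex II did not move together. Sdhd, a membrane anchor, had 251, 504, 213 and 2090 CPM in maternal cells and 197, 434, 377 and 470 in recipient cells. Sdhc, the other anchor, had 121, 313, 68.2 and 329 CPM in maternal cells and 116, 95.1, 131 and 136 in recipient cells, high in both maternal mIUT and maternal DC-depleted pIUT. Sdhb, the iron-sulfur subunit, had 265, 323, 211 and 457 CPM in maternal cells and 285, 287, 357 and 312 in recipient cells, and had the lowest SD of all nuclear members (0.324). Sdha, the flavoprotein that oxidizes succinate, had 353, 155, 211 and 161 CPM in maternal cells and 170, 212, 347 and 379 in recipient cells. Sdha was past 2-fold lower in maternal DC-depleted pIUT than in maternal uninjected (log2 fold change -1.13), while Sdhd was higher (3.06).

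All 8 complex III members were past 2-fold higher in maternal DC-depleted pIUT against pIUT, as were 32.9% of all genes. Uqcrc1, a core subunit, had 640, 392, 437 and 1380 CPM in maternal cells and 543, 444, 907 and 807 in recipient cells. Uqcrc2, the other core subunit, had 222, 173, 103 and 527 CPM in maternal cells and 78.7, 210, 240 and 248 in recipient cells. Uqcr11, a small accessory subunit, had 187, 184, 166 and 1030 CPM in maternal cells and 187, 111, 176 and 184 in recipient cells. Uqcrq had 194, 413, 194 and 819 CPM in maternal cells and 317, 145, 233 and 197 in recipient cells. Each was highest in maternal DC-depleted pIUT, and only Uqcrc2 had recipient uninjected as its lowest library among these 4.

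In complex IV, 11 of 12 tested nuclear members were past 2-fold higher in the same comparison, against 32.9% of all genes. Cox4i1, the common form of the regulatory subunit 4, had 726, 809, 456 and 1770 CPM in maternal cells and 548, 490, 580 and 540 in recipient cells. Cox7a2l, which takes part in joining complexes III and IV, had 275, 181, 57.1 and 221 CPM in maternal cells and 62.5, 129, 133 and 105 in recipient cells, and was below maternal uninjected in all 3 maternal IUT libraries, past 2-fold in pIUT (log2 fold change -2.26). Most tissue forms of complex IV subunits, and Ndufa4l2, lay below the level filter. Cox6b2, the testis form of subunit 6b, was the single one that passed the level filter, with 9.38, 9.66, 23.1 and 131 CPM in maternal cells and 52.6, 6.1, 7.53 and 21.4 in recipient cells. Cox6a2 reached at most 4.33 CPM, Cox7a1 10.9 CPM, Cox8b 2.42 CPM and Cox4i2 1.02 CPM in any library, and Cox7b2 and Cox8c had no count. Ndufa4l2 had 1238 counts in recipient uninjected and 0 in recipient mIUT and recipient pIUT, so that recipient uninjected was at least 245-fold and at least 385-fold higher, taking 3 counts per library as the floor.

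The nuclear members of complex V summed to 6153, 6394, 5414 and 17150 CPM in maternal cells and 5520, 4059, 8712 and 7356 CPM in recipient cells, and 17 of 18 tested members were past 2-fold higher in maternal DC-depleted pIUT than in maternal pIUT (32.9% of all genes). Atp5f1b had 1600, 1280, 1730 and 3400 CPM in maternal cells and 1320, 892, 3030 and 2150 in recipient cells. Here recipient pIUT came close to maternal DC-depleted pIUT. Atp5if1, the inhibitor that stops the synthase from running backwards, had 166, 225, 377 and 1320 CPM in maternal cells and 352, 78.5, 155 and 233 in recipient cells. Atp5mc1, Atp5mc2 and Atp5mc3 encode the same mature c-ring subunit. Atp5mc1 had 201, 156, 121 and 745 CPM in maternal cells and 217, 47.6, 162 and 173 in recipient cells. Atp5mc2 had 53.3, 23.7, 18.6 and 83.4 CPM in maternal cells and 36, 18.3, 47.1 and 43.1 in recipient cells. Atp5mc3 had 234, 392, 243 and 1260 CPM in maternal cells and 288, 175, 373 and 391 in recipient cells. The 3 c-ring genes shared their highest library and differed in their order across the rest.

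In the other comparisons with uninjected pups the nuclear median lay between -0.40 and 0.23 with TMM scaling and between -1.18 and 0.52 over the other scalings. Maternal mIUT had 4 members past 2-fold higher (Sdhc, Uqcrq, Ndufa8 and Sdhd) and 4 lower (Ndufaf4, Sdha, Atp5mc2 and Ndufa9) of 88, beside 25% of all genes higher and 34.7% lower, with a median log2 fold change of 0.23 that turned to -0.08 when totals left out mitochondrial and globin counts. The split was 1 higher and 10 lower under those totals, and 1 higher and 8 lower with scaling by library total. Next below the threshold was Ndufv2, a subunit of the NADH-oxidizing arm (0.97). Maternal pIUT had 3 higher (Cox6b2, Atp5if1 and Ndufaf1) and 12 lower, beside 24.8% and 27.6% of all genes, with a median of -0.37 that turned to 0.11 under the totals without mitochondrial and globin counts, where the split was 4 and 4. Scaling by library total gave 3 higher and 5 lower. Ndufs1 (0.57) and Ndufb9 (0.48) came next among the highest. The members lowest in maternal pIUT were Cox7a2l, Ndufaf8 (-2.11), Ndufaf7 (-1.61), Atp5mc2 (-1.52) and Ndufaf6 (-1.38).

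Recipient mIUT had 12 nuclear members higher and 14 lower than recipient uninjected (median -0.40), beside 39.5% of all genes higher and 29.7% lower. This split depended on the scaling, with 3 higher and 41 lower by library total (median -0.95), 7 and 19 with DESeq2 size factors (-0.54), and 1 and 54 with totals that left out mitochondrial and globin counts (-1.18). The lowest were Ndufaf4 (-3.47), Cox6b2 (-3.11), Ndufaf6 (-2.27), Atp5mc1 (-2.19) and Atp5if1 (-2.17), and the highest after Ndufaf5 were Ndufa8 (1.74), Ndufs1 (1.70), Uqcrc2 (1.42) and Ndufs4 (1.39). Recipient pIUT had 14 higher and 3 lower, beside 36.6% and 23.1% of all genes, with a median of 0.11 that turned to -0.05 with DESeq2 size factors. Ndufb5, of the membrane arm, was among its highest (1.58), and Ndufa5 (-1.09) and Atp5mj (-0.83) were among its lowest. Recipient DC-depleted pIUT had 10 higher and 1 lower (median 0.12), beside 34.7% and 22.2% of all genes. There the split was 22 and 0 by library total (median 0.52) and 8 and 2 with DESeq2 size factors (median 0). Ndufb5 was again among the highest (1.44), and after Cox6b2 the lowest were Cox6a1 (-0.96), Ndufa3 (-0.88), Ndufa6 (-0.84) and Cox8a (-0.76), none past 2-fold. Ndufa11, Ndufs4, Ndufs1, Ndufaf5 and Uqcrc2 were past 2-fold higher in all 3 recipient IUT libraries (5.68% of nuclear members, against 28.5% of all genes), and Cox6b2 was past 2-fold lower in all 3 (1.14%, against 13.6%). These comparisons share the recipient uninjected library.

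**Figure D3:**
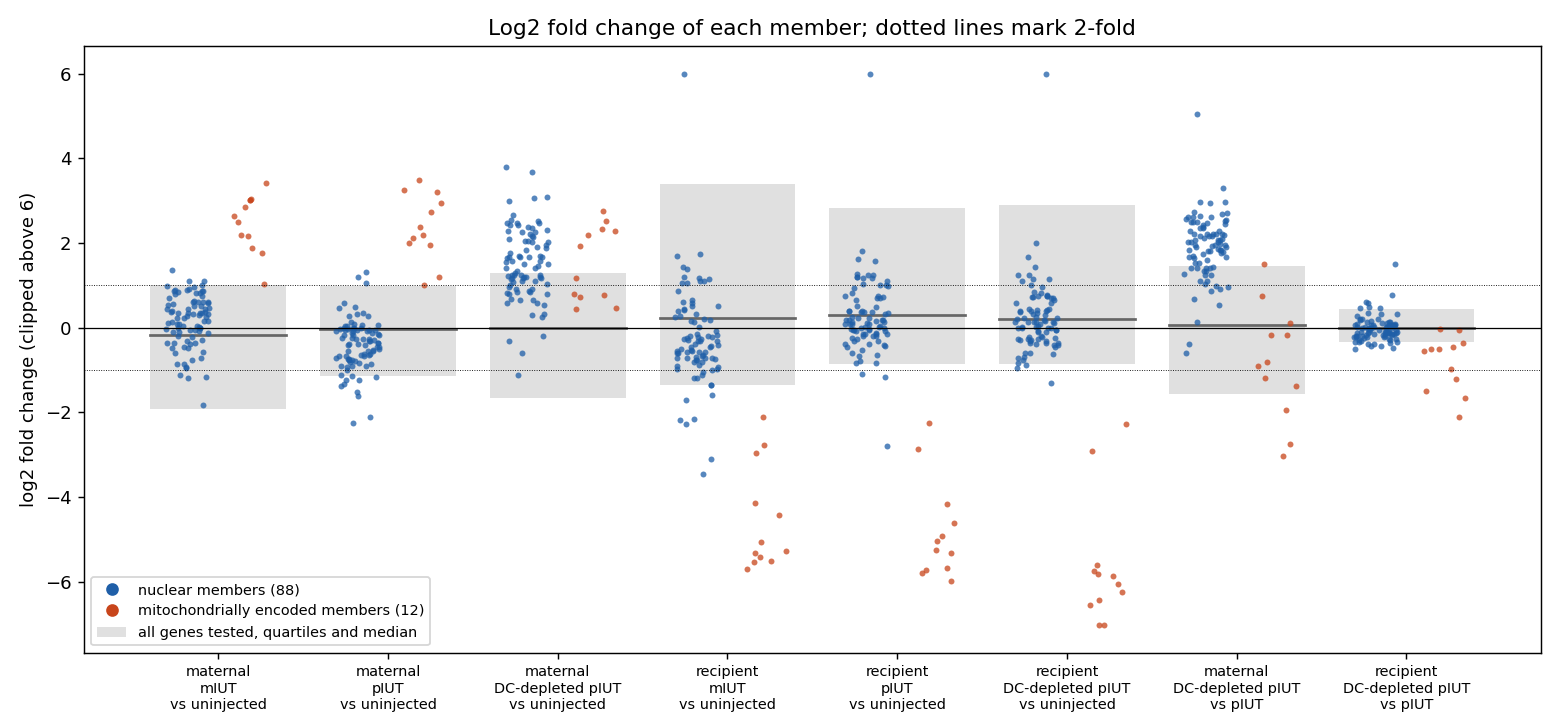
Log2 fold change of each member in the 6 comparisons of an IUT library with the uninjected library of its origin and in the 2 comparisons of DC-depleted pIUT with DC control pIUT; blue points are the 88 nuclear members, orange points the 12 mitochondrially encoded members, grey bars the quartiles and dark lines the median of all 8275 genes tested, and values above 6 (Ndufaf5 in recipient cells) are drawn at 6. The nuclear points have a median of 1.97 for DC-depleted pIUT against pIUT in maternal cells and -0.06 in recipient cells.

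Maternal and recipient cells were also set against each other within a treatment. All 12 tested mitochondrial members were lower in maternal cells of uninjected pups (median -3.76), and all 12 were higher in maternal cells after mIUT (median 3.57), pIUT (3.71) and DC-depleted pIUT (3.47). Nuclear members were 11 higher and 2 lower in maternal uninjected (median 0.07, or -0.02 with totals without mitochondrial and globin counts), 22 and 1 in mIUT (0.66), 2 and 12 in pIUT (-0.40) and 70 and 2 in DC-depleted pIUT (1.57). In pIUT the nuclear split moved to 2 and 4 with DESeq2 size factors and to 2 and 2, with a median of 0, with totals without mitochondrial and globin counts. Scaling by library total gave 43 and 1 in mIUT and 41 and 2 in DC-depleted pIUT. Totals without mitochondrial and globin counts gave 50 and 1 in mIUT and 53 and 2 in DC-depleted pIUT. Of all genes, 34.5% were higher and 26.2% lower in uninjected, 19.4% and 33.4% in mIUT, 16.4% and 26.8% in pIUT, and 20.1% and 38% in DC-depleted pIUT. Over the 4 treatments together, edgeR's quasi-likelihood test of maternal against recipient cells called 0 of 100 members and 0% of all genes, with 0 members and 240 genes at an unadjusted p under 0.05. Without the uninjected libraries it again called 0, and 13 members (the 12 mitochondrial members and Atp5if1) and 427 genes had an unadjusted p under 0.05. DESeq2 called 2 members among 2.24% of all genes, mt-Nd1 (log2 difference 3.64, adjusted p 0.0309) and mt-Cytb (3.42, adjusted p 0.0465). Both were higher in maternal cells in 3 of 4 treatments, and treatments are not replicates of a condition.

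Nuclear members make short messages, with a median of 1166 bases against 3080 over all genes tested, and length moved with the maternal DC-depleted pIUT result. In that library against maternal pIUT, genes of up to 500 bases had a median log2 fold change of 2.05, genes of 500 to 800 bases 1.80, genes of 800 to 1200 bases 1.63 and longer genes -0.05. Nuclear members had medians of 2.06, 2.06, 2.19 and 1.84 in the same classes. Above 1200 bases, 36 of 43 nuclear members were past 2-fold higher (83.7%), against 29.4% of all genes over 1200 bases. Lengths were not matched within that class, which reaches 7389 bases in nuclear members and 123193 in all genes tested. The ribosomal protein genes, a list of short messages added after the values were seen, had 81 of 89 past 2-fold higher and 3 lower (median 2.34), where 67.7% to 72.7% of all genes in the 3 classes up to 1200 bases were higher. In recipient cells the same contrast had medians between -0.18 and 0.01 over the length classes, and -0.07 for the ribosomal protein genes. Cell type markers also differed between maternal pIUT and maternal DC-depleted pIUT. Hematopoietic markers summed to 1466 CPM in the former and 477 in the latter, with Ptprc (70.2 and 2.63), Laptm5 (445 and 30.6) and Cd53 (691 and 115) lower in the latter and Coro1a (260 and 328) higher. Granulocyte markers went from 1522 to 10885 CPM, hepatocyte markers from 149 to 573, striated muscle markers from 192 to 576, and erythroid markers from 130614 to 181068. The part of these markers in the result was not tested.

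**Figure D4:**
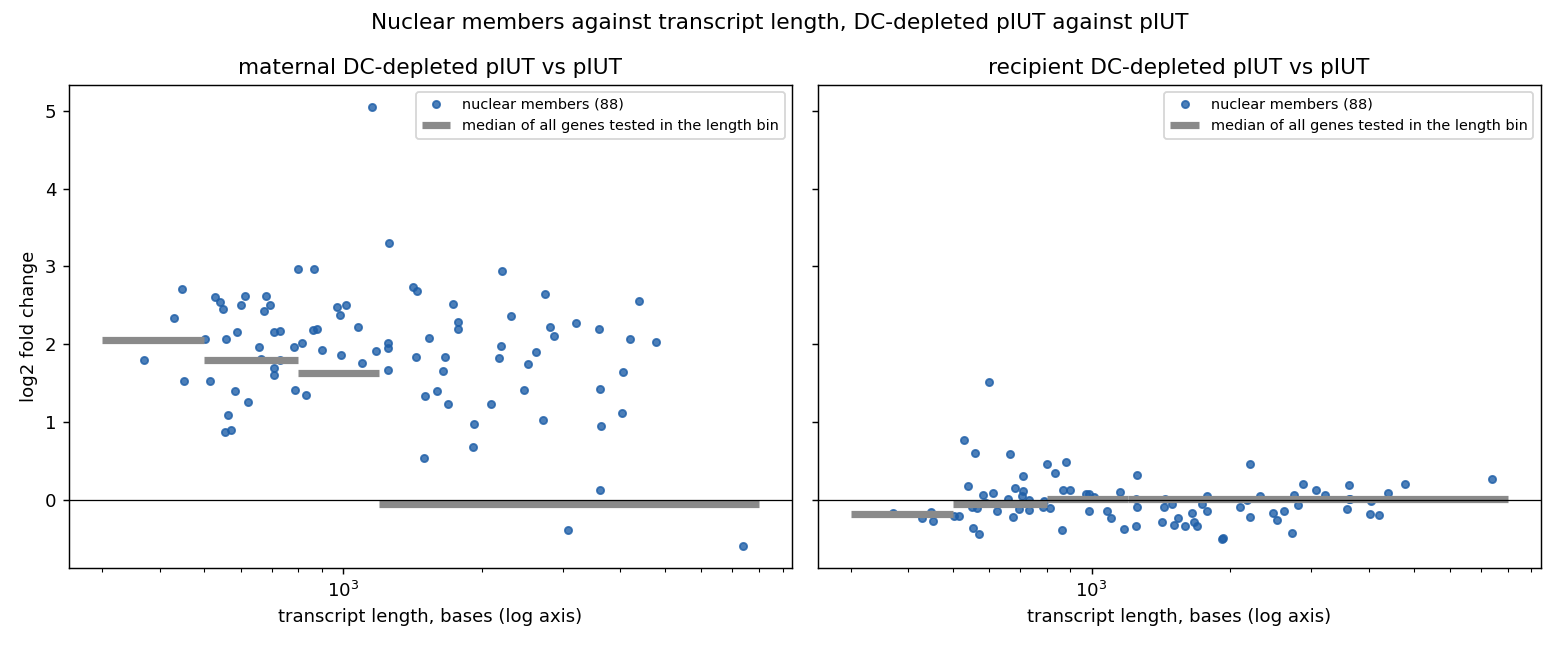
Log2 fold change of the 88 nuclear members (blue points) against transcript length (log axis), for DC-depleted pIUT against DC control pIUT in maternal cells, left, and recipient cells, right; grey lines are the medians of all genes tested in 4 length classes, the last of which takes in all genes over 1200 bases. In maternal cells the points above 1200 bases have a median of 1.84, while the grey line of that class lies at -0.05. Lengths were not matched within that class.

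Upstream sequence was read for members at both ends of this contrast, which moved together with few exceptions. The 250 bases before the start of the canonical transcript are shown for the 2 highest and the 2 lowest members whose window held at most 30 annotated exon bases. They are Ndufaf6 (chr4:11076227-11076476) and Ndufb1 (chr12:101942514-101942763) at the top, and Ndufa10 (chr1:92401595-92401844) and Ndufs5 (chr4:123612003-123612252) at the bottom, all on the minus strand of GRCm39. Members nearer to the ends, Sdhd at the top and Sdha, Ndufs1, Ndufaf3 and Ndufa13 at the bottom, were passed over because their windows held more exon bases, and Ndufaf6 stands at the top only through the library that carried it over the level filter. Capitals mark a match to GCGCANGCG, the core of the site of NRF1, a regulator of nuclear genes for mitochondrial proteins.

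Ndufaf6: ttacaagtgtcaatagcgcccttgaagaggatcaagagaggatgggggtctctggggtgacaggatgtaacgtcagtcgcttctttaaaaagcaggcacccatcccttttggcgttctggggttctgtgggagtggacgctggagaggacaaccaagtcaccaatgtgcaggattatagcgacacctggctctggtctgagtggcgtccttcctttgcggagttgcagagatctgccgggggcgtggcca

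Ndufb1: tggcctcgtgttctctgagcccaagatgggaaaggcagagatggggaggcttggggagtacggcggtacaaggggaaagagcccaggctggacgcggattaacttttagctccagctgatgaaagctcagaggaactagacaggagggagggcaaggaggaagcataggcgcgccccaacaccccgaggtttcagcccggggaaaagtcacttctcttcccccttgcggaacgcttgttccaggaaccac

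Ndufa10: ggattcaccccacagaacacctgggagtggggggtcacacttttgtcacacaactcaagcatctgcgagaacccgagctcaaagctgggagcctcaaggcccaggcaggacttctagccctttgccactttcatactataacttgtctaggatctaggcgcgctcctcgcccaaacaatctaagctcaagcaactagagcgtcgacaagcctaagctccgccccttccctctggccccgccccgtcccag

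Ndufs5: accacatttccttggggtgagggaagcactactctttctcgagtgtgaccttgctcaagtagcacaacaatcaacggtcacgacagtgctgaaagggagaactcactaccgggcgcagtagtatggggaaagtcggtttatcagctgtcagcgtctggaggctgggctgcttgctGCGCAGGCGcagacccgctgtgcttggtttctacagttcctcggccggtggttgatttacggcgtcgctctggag

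Ndufs5, with 79.1, 101, 79.3 and 145 CPM in maternal cells and 42.5, 90.7, 95.8 and 74.8 in recipient cells, was the only one of the 4 with a match, and none of the 4 windows held CCGGAAG, a core of sites of the ETS family. Of the windows not shown, that of Sdhd held 1 match to each motif, that of Sdha 1 match and that of Ndufa13 4 matches to GCGCANGCG. Both motifs were searched on both strands. GCGCANGCG was present in 10 of the 88 tested nuclear members (11.4%) and in 8.74% of the windows of all tested nuclear genes. CCGGAAG was present in 7 members (7.95%) and in 11.3% of all tested nuclear genes. These shares were not tested against each other, and a match describes letters and not binding.

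Other genes of mitochondria were counted for comparison. In maternal DC-depleted pIUT against pIUT, where 32.9% of all genes were past 2-fold higher and 32.1% lower, assembly factors outside the symbol rule had 23 of 34 past 2-fold higher and 0 lower (median 1.65), from Foxred1 (3.49) and Cox14 (2.89) to Acad9 (-0.41) and Oxa1l (-0.79). A mixed list of cytochrome c and other genes had 5 of 6 higher and 0 lower (median 1.60). It ran from Dmac2l (1.90) and Cyc1 (1.80) to Higd1a (1.37) and Dmac2 (0.30). Genes of mitochondrial import, channels and membrane shape had 9 of 16 higher and 2 lower (median 1.31), with Tomm20 (2.69) and Timm23 (2.53) at the top and Opa1 (-5.18) and Immt (-2.20) at the bottom. The tricarboxylic acid cycle, which supplies the NADH, had 6 of 17 higher, a share near that of all genes, and 2 lower (median 0.49), with Suclg1 (2.08) and Fh1 (2.04) highest and Ogdh (-2.29) lowest. Glycolysis had 2 of 15 higher and 6 lower (median -0.76), with Ldha (2.42) and Pgk1 (1.20) highest and Pkm (-3.09) and Hk1 (-2.79) lowest.

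Genes that maintain and transcribe mitochondrial DNA were followed beside the mitochondrial set. Against maternal uninjected they had 0 of 13 higher and 8 lower in mIUT (median -4.15), 1 higher and 3 lower in pIUT (median 0.01) and 9 higher and 2 lower in DC-depleted pIUT (median 2.06). All genes were 25% higher and 34.7% lower, 24.8% and 27.6%, and 29.9% and 33.5% in the same order, and 5 of the 13 had 3 counts or fewer in maternal mIUT. Against recipient uninjected they had 6 of 13 higher in each IUT library, with 4, 3 and 2 lower, beside 39.5%, 36.6% and 34.7% of all genes higher and 29.7%, 23.1% and 22.2% lower. For 5 of the 13, recipient uninjected had 3 counts or fewer. The mitochondrial messages were 12 of 12 higher in maternal mIUT, where 8 of these 13 genes were lower. Genes common elsewhere were missing more often in that library than in 6 of the other libraries. Nuclear regulators of mitochondrial genes, 5 of which passed the level filter, had 3 higher and 0 lower in maternal DC-depleted pIUT against pIUT, beside 32.9% and 32.1% of all genes, with Esrra and Myc (1.70) highest and Nrf1 (-0.64) and Gabpa (-0.28) lowest. Esrra had 479 counts in maternal DC-depleted pIUT and 1 count in maternal pIUT, a ratio of 734 (exact 95% counting interval 131 to 29000).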

How the data were processed

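Total RNA of 8 pooled libraries was analysed. The authors deposited estimated counts per gene, written by salmon and not normalized, against GRCm39 with GENCODE release 26, whereas the study's methods name featureCounts. The submitters' processing notes also name bcl2fastq and StringTie. All 8 columns belong to a sample. Estimated counts were rounded to whole numbers here. Symbols, positions and transcript lengths came from GENCODE release 39 (97.99% of identifiers matched). The authors also deposited clonotype tables, not used here.

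Counts were divided by library total times TMM factor and given per 1000000 (CPM). TMM factors and log2 fold changes came from edgeR 4.0.16 in R 4.3.3 (exact test, with a dispersion of 0.4 as in the study's methods and the default prior count), with genes called past 2-fold. Protein-coding genes with a mean of at least 10 CPM were tested. Maternal and recipient cells were compared over all 8 libraries by edgeR's quasi-likelihood test with treatment as a block, and by DESeq2 1.42.0, with Benjamini-Hochberg adjustment. The test of the IUT difference between origins was chosen after values were seen and had no block for treatment. The quasi-likelihood test was tested on simulated data of 8275 genes, 200 of them changed. That simulation covered the comparison of origins only and held no differences between treatments, unlike these libraries. Other steps ran in Python 3.11.15 with pandas 2.3.3, numpy 2.4.6, matplotlib 3.10.9 and scipy 1.17.1. Counts of libraries without molecular identifiers are not independent molecules, and intervals cover counting error only. Genes at 3 counts or fewer were taken as at the floor.

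The genes named are the 13 mitochondrially encoded genes, Sdha to Sdhd, the tissue isoforms, the 5 highest and 5 lowest nuclear members of each comparison with uninjected pups, members at the floor, members called in the test of origin and, of other lists, the 2 highest and 2 lowest. Another gene that this rule names is not reported here. Further members were named after their values were seen. The members and lists were chosen with earlier results of these data known. Alternatives were scaling by library total, by DESeq2 size factors and by totals without mitochondrial and globin counts, prior counts of 2 and 5, other filters, a threshold of 1.5-fold, no block, and leaving out each treatment. Marker lists covered T, B and NK cells, granulocytes, monocytes and macrophages, dendritic cells, erythroid cells, megakaryocytes, hepatocytes, muscle, brown adipocytes, epithelial, mesenchymal and endothelial cells, and hematopoietic cells.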

Additional observations from a re-analysis of the deposited data

Results flagged for a closer look

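The mitochondrially encoded members moved in opposite directions after IUT in the 2 origins, higher than uninjected in each of the 3 maternal IUT libraries and lower in each of the 3 recipient IUT libraries. The median log2 fold change averaged over the 3 comparisons was 7.56 higher in maternal than in recipient cells for the whole set (2.14 against -5.43). By complex the difference was 7.78 for complex I, 8.4 for mt-Cytb of complex III, 6.51 for complex IV and 7.31 for complex V. These differences of medians were not tested themselves. For single genes, edgeR's quasi-likelihood test of the difference called 0 members (13 at an unadjusted p under 0.05, where 15.6% of all genes lay) and DESeq2 called 13, beside 18% of all genes. Ndufaf5 was among the 13 in both tools but went the other way (-8.58 in edgeR and -8.57 in DESeq2). Each origin has a single uninjected library, shared by its 3 comparisons. The recipient one had the fewest genes above 3 counts (9937). It also had 10215 CPM of hepatocyte markers, of which Afp held 9050.

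In recipient cells, in the order uninjected, mIUT, pIUT and DC-depleted pIUT, B cell markers stood at 1229, 72.6, 196 and 262 CPM, T cell markers at 667, 655, 3643 and 926, and NK cell markers at 9.78, 39.4, 664 and 782. Other markers over the 8 libraries were monocytes and macrophages at 698 to 36609, dendritic cells at 0 to 134, megakaryocytes and platelets at 0 to 371, striated muscle at 5.86 to 576 and brown adipocytes at 0.244 to 62.2.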

How the results depend on the processing

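No set median past 1 on the log2 scale changed sign under the alternatives run, while nuclear medians closer to 0 did, and the balance of higher and lower nuclear members in maternal mIUT went from 5 and 4 to 1 and 10 over the scalings. Counts of nuclear members past 2-fold in either direction stayed within 1.5 times under prior counts of 2 and 5 and a minimum of 10 counts in both libraries. With scaling by library total the count went to 8 in maternal pIUT (from 15), 44 in recipient mIUT (from 26), 22 in recipient DC-depleted pIUT (from 11), 44 for maternal against recipient cells in mIUT (from 23) and 43 in DC-depleted pIUT (from 72). With totals without mitochondrial and globin counts it went to 8 in maternal pIUT, 55 in recipient mIUT, 51 for maternal against recipient cells in mIUT and 4 in pIUT (from 14, and 6 with DESeq2 size factors). Without a filter on level it was 13 in maternal mIUT (from 8) and 3 in recipient DC-depleted pIUT against pIUT (from 1). At 1.5-fold the counts were 34 in maternal mIUT, 35 in maternal pIUT, 49 in recipient mIUT, 33 in recipient pIUT, 32 in recipient DC-depleted pIUT, 4 in recipient DC-depleted pIUT against pIUT, 32 for maternal against recipient cells in uninjected, 51 in mIUT and 32 in pIUT. In maternal DC-depleted pIUT against pIUT library-total scaling moved the median of all genes from 0.06 to -0.45 and the nuclear median from 1.97 to 1.39. The causes were not tested, beyond the changed divisor or threshold. DESeq2 called 2 members between origins (2.24% of all genes) and 13 for the IUT difference (18%), where edgeR called 0. The comparison of origins was paired by treatment, and without that block edgeR called 0 members too. The test of the IUT difference between origins was not paired by treatment, and a paired form of it was not run. For the comparisons of 2 libraries no paired analysis was possible because each group is a single library. Pools without replicates limit every fold change here.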
